A study of Mus musculus with 6 samples.

Results

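The mouse circRNA arrays carried, among their circRNA probes, a set of Agilent catalogue probes for ordinary linear transcripts, each spotted 10 times on every array. Probes with a RefSeq mRNA (NM) or non-coding transcript (NR) accession, and with no row in the deposited value table, were taken from the scanner files of pools 2 to 6. There were 44 of them, 43 NM and 1 NR, in a total of 14280 circRNA and linear probes. All 44 accessions matched a gene symbol in RefSeq. Another 6 catalogue probes of the same kind carried other accessions and were not counted as members.

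Neutrophils were isolated with anti-Ly-6G beads from bone marrow of male mice at 8 weeks of age, and each pool combined 3 mice. The db-derived pools (numbers 4, 5 and 6) came from Lepr db/db mice, which lack a working leptin receptor and become obese and diabetic. The non-db-derived pools (numbers 1, 2 and 3) came from Lepr db/+ mice of the same BKS.Cg-Dock7m +/+ Leprdb/J strain. RNA of all 6 pools had been treated with RNase R before random-primed amplification and Cy3 labelling, and no array of untreated RNA was analysed here.

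RNase R is an exoribonuclease that enters at a free 3′ end and degrades linear RNA, whereas a circular RNA has no end to enter. The treatment is used to enrich circRNAs, so probes for linear mRNAs report what signal is present at mRNA sequences after digestion. A probe that lies in an exon that also circularizes can bind the circle as well as the mRNA. The sequences and positions of the linear probes are in none of the files used here, so which transcripts each probe can bind was not tested. Probes of genes with near-identical relatives are uncertain for the same reason, among them Actb (other actins), H2-Q7 (other class I genes), Rps4l (a transcribed pseudogene related to Rps4x), Trp53rka (Trp53rkb) and the olfactory receptors.

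The scanner file of pool 1 was truncated, so the main comparison used 2 non-db-derived pools (2 and 3) and 3 db-derived pools (4, 5 and 6). The scanner flagged 80.7% of the 14236 circRNA probes as well above background in pool 5 and up to 91.4% in the other arrays. Pools 1 and 4 were scanned in 1 session and pools 2, 3, 5 and 6 in another. None of the 17 neutrophil marker genes listed for a check of the cells had a linear probe, nor did any gene of the erythroid, B cell, T cell, monocyte, megakaryocyte or eosinophil lists, so the cell type could not be checked with these probes. Of 20 common reference genes, only Actb had one. Each pool is a separate set of mice as far as the labels say, and the number of arrays limits the precision.

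Most linear probes gave signal after RNase R. A probe was called detected on an array when more than 5 of its 10 spots were flagged well above background. By this rule 41, 38, 41, 35 and 40 of the 44 linear probes were detected in pools 2, 3, 4, 5 and 6. Pool 5 had the fewest, as it also had among the circRNA probes. On all 5 arrays 35 of the 44 linear probes (79.5%) were detected, beside 79.8% of the circRNA probes. A circRNA probe has 1 spot and was called detected when that spot was flagged, so the rules are unlike. The 2 shares differ by less than 1 linear probe would move them. For 34 linear probes every spot on every array was flagged. Of the 6 catalogue probes with other accessions, 5 were detected on all 5 arrays.

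The negative control probes of the array set a scale for that flag. Of 15 negative control probes that were also spotted 10 times, 4, 5, 8, 3 and 7 were detected in pools 2, 3, 4, 5 and 6. Across the 5 arrays, 3 negative probes were detected on all of them and 5 on none. Before scaling, the negative probes MM9NEGATIVE016 and MM9NEGATIVE017 had log2 signals of 5.13 to 6.29 over pools 2 to 6. The signals of Rps4l (3.74 to 4.89), E2f1 (3.998 to 4.79) and Uhrf1bp1l (3.77 to 4.70) lay below both on every array. Other members, such as Actb (9.45 to 11.24) and H2-Q7 (8.02 to 9.73), lay above both. The flag marks signal over local background, and what RNA the signal came from was not tested.

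Probes for genes best known from other tissues were detected as well. Members were grouped by the role of their gene into cytoskeleton, membranes and organelles (10 members), gene expression and cell cycle (7), metabolism and redox (9), immune (5), nerve, sense organ or pigment cell (9), and muscle, germ cell or epithelium (4). All 5 immune and all 4 muscle, germ cell or epithelium members were detected on all 5 arrays. For metabolism and redox this held for 8 of 9 members, for gene expression and cell cycle for 6 of 7, for nerve, sense organ or pigment cell for 6 of 9, and for cytoskeleton, membranes and organelles for 6 of 10. Probes for genes with roles far from neutrophils had every spot flagged on every array. Among them were the olfactory receptors Olfr166 and Olfr1307 and the T cell growth factor Il2. Whether these transcripts were present in the cells was not tested.

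**Figure D1:**
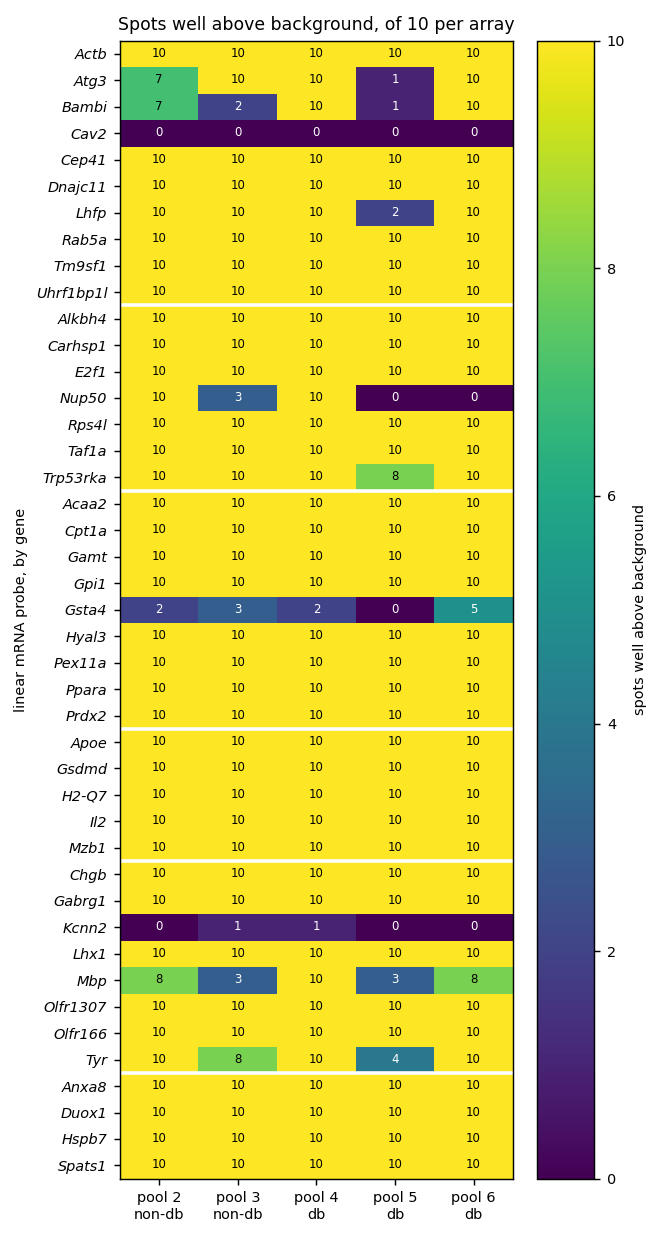
Number of spots well above background, of 10, for 43 of the 44 linear probes (rows, grouped by gene role between white lines) on the arrays of pools 2 to 6 (columns). Most rows read 10 throughout, the rows of Cav2, Kcnn2 and Gsta4 never pass 5, and pool 5 has the lowest counts for several dim probes.

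Of the 44 members, 3 were detected on no array. Cav2, which encodes a caveolin of membrane invaginations, had 0 flagged spots in all 5 pools. Kcnn2, a calcium-activated potassium channel of neurons, had 1 flagged spot each in pools 3 and 4 and 0 elsewhere. Gsta4, a glutathione transferase that detoxifies lipid aldehydes, had 2, 3, 2, 0 and 5 flagged spots in pools 2 to 6. These 3 probes have no fold change between groups, since both groups were below the detection rule.

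Detection of another 6 members differed between arrays. Nup50, a component of the nuclear pore basket, had all 10 spots flagged in pools 2 and 4, but 3 in pool 3 and 0 in pools 5 and 6. Each group thus held a pool with the Nup50 probe detected and a pool without. Bambi, a pseudoreceptor that dampens TGF-beta signalling, had 7, 2, 10, 1 and 10 flagged spots in pools 2 to 6, and Mbp, myelin basic protein, had 8, 3, 10, 3 and 8.

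The other members of this kind dropped below the rule only in pool 5. Atg3, which conjugates LC3 to lipid in autophagy, had 7 flagged spots in pool 2, 1 in pool 5 and 10 in each other pool. Lhfp had 2 flagged spots in pool 5 and 10 in each other pool. Tyr, the tyrosinase of melanin synthesis, had 8 flagged spots in pool 3, 4 in pool 5 and 10 in each other pool. All 6 of these probes had every spot flagged in pool 4. The gaps in detection lay in pools 3, 5 and 6. For Nup50, Bambi and Mbp they lay in both groups, and for Atg3, Lhfp and Tyr in pool 5 of the db group alone.

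For values, the 10 spots of a probe were averaged on the log2 scale and the array's 75th percentile of circRNA probes was subtracted, so a level of 0 is the brightness of that percentile. Levels are given in the order of pools 2, 3, 4, 5 and 6. Apart from the negative control probes above, levels of different probes are not set against each other, since probes differ in how well they bind. The 40 members detected on at least 3 of the 5 arrays were compared between groups, and Nup50, Cav2, Kcnn2 and Gsta4 were left out.

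**Figure D2:**
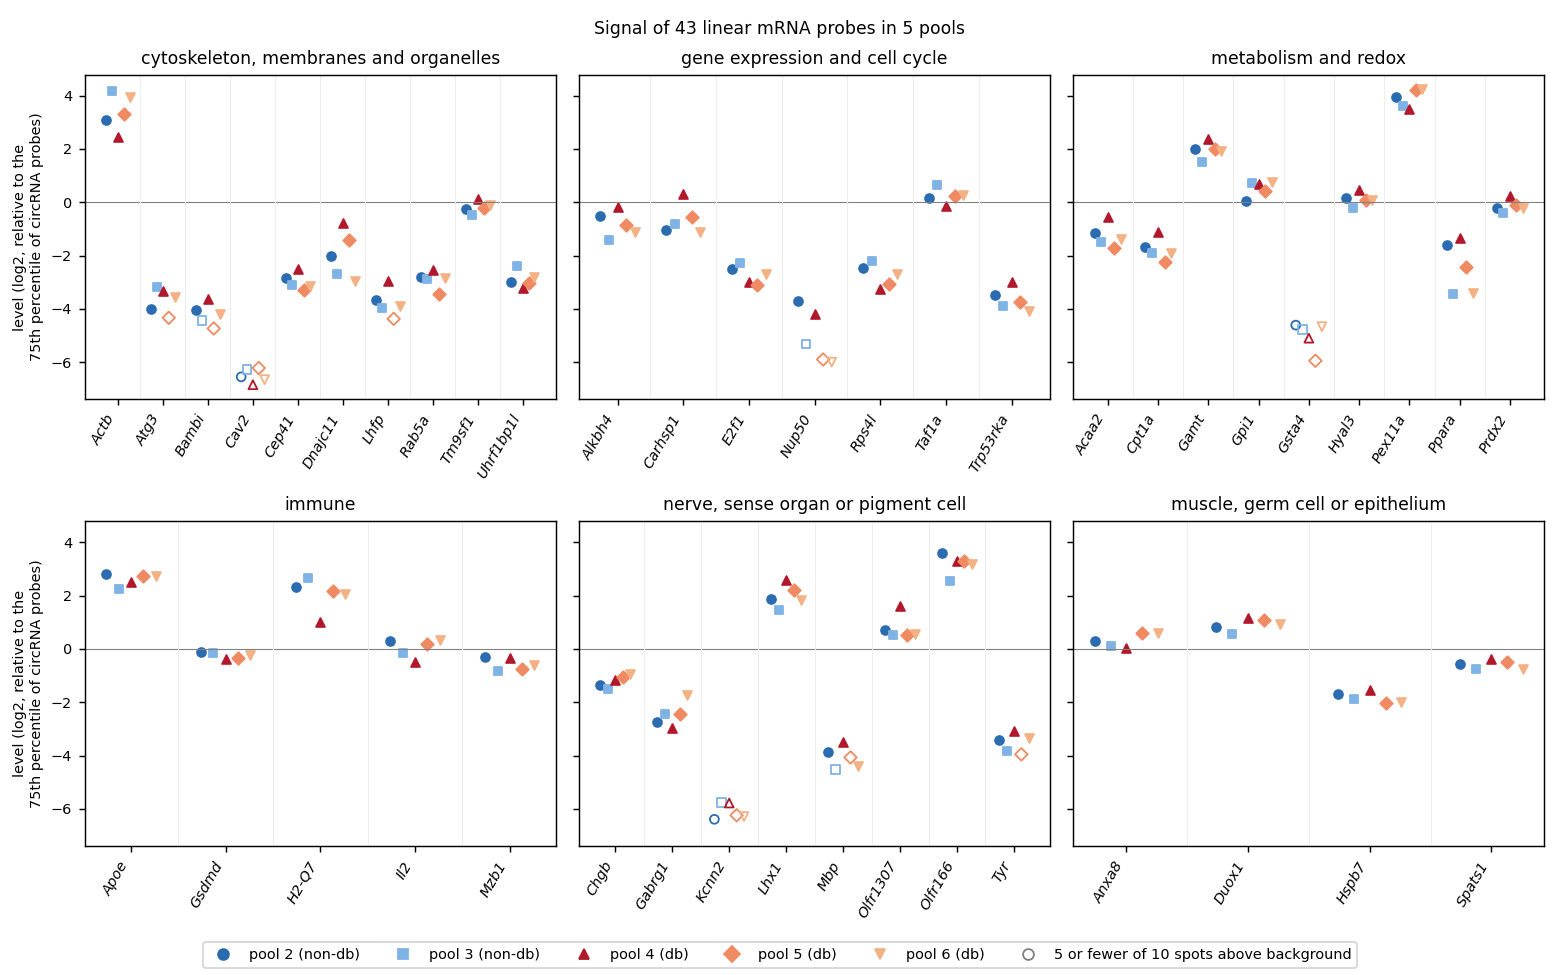
Level of 43 of the 44 linear probes in pools 2 and 3 (non-db, blue) and 4, 5 and 6 (db, red and orange), in log2 units relative to the 75th percentile of circRNA probes of the array, by gene role. Each point is the mean of 10 spots, open points had 5 or fewer spots above background, and for most genes the 2 groups overlap.

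The 10 spots of a probe agreed far more closely than the pools did. Over the 34 members with every spot flagged on every array, the SD over the 10 spots of 1 array had a median of 0.06 log2 units, and the SD over the 5 pools a median of 0.33. The SD over pools was above the SD over spots for 34 of these 34 members, with a median ratio of 5.27. Spot error was larger for the dim members, with a median SD of 0.24 over the other 6 members kept. The spread over pools was like that of circRNA probes, each of which had 1 spot. Its median was 0.35 over the 40 members kept and 0.33 over the 12722 circRNA probes kept.

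**Figure D3:**
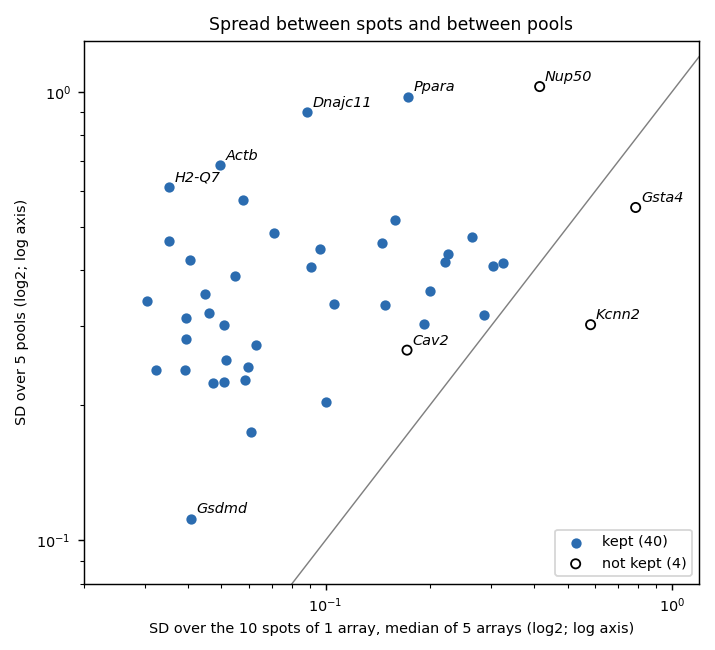
SD of the log2 signal over the 10 spots of 1 array (horizontal axis, median of 5 arrays, log scale) against the SD over the 5 pools (vertical axis, log scale) for 44 linear probes. Filled points are the 40 members compared between groups and lie above the line of equality, and 2 of the 4 probes left out, Gsta4 and Kcnn2, lie below it.

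Single members differed widely in how steady they were. Gsdmd, the pore-forming protein of pyroptosis, spanned the narrowest range of the 40 members, 0.26 log2 units, with levels of -0.13, -0.17, -0.40, -0.34 and -0.24. Spats1, a gene of the testis, spanned 0.40 with levels of -0.55, -0.75, -0.36, -0.49 and -0.76, and Hspb7, a small heat shock protein of heart muscle, spanned 0.49 with levels of -1.69, -1.86, -1.55, -2.03 and -1.99. The median range was 0.87 over the members and 0.83 over circRNA probes.

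The widest range was that of Dnajc11, a J-protein of mitochondrial membranes, which spanned 2.19 log2 units. Ppara, the nuclear receptor that turns on fatty acid oxidation, spanned 2.09 with levels of -1.59, -3.43, -1.34, -2.44 and -3.39. The pools high for Ppara were 2 and 4, 1 from each group, and the low pools 3 and 6 were also from different groups. Before scaling, the negative control probes MM9NEGATIVE016 (5.92, 5.53, 6.29, 6.05 and 5.53) and MM9NEGATIVE017 (5.73, 5.13, 6.02, 5.91 and 5.33) were also highest in pool 4 and lowest in pools 3 and 6. MM9NEGATIVE015 was highest in pool 3, at 4.65. The part of background in the ranges of Ppara and Dnajc11 was not tested. Actb, the cytoskeletal beta-actin often used as a reference, spanned 1.71 with levels of 3.08, 4.16, 2.45, 3.31 and 3.95. Its highest and lowest pools were 3 and 4, and its groups overlapped.

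The comparison of db-derived with non-db-derived neutrophils was the one set by the design. It gave no linear probe that passed the test. In pooled RNA of this kind, fewer cells of a type and less RNA per cell cannot be told apart. In a limma fit over 12762 circRNA and linear probes, 0 of the 40 members had an adjusted p under 0.05, as had 0.0% of all probes, and the smallest limma adjusted p was 0.9981. At an unadjusted limma p under 0.05, 0 members were higher in db (0.094% of all probes were) and 1, Rps4l, was lower (1.7% of all probes were). The methods' t-test gave 1 higher member, Chgb, and 0 lower at the same unadjusted threshold. No share of all probes is given for that t-test, so its count stands without a background. For 39 of the 40 members the 95% confidence interval of the difference included 0. The SE of a difference had a median of 0.32 log2 units and ran from 0.23 to 0.74. The 95% confidence interval reached 0.78 log2 units either side of the difference at the median, and 0.54 to 1.78 over the members, so smaller differences could not be told from 0 with these arrays.

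By size alone, 1 member, Dnajc11, was over 1.5-fold higher in db (2.52% of all probes were), and 2 members, H2-Q7 and Rps4l, were over 1.5-fold lower (9.9% of all probes were). The groups did not overlap for 3 members with db higher, Chgb, Duox1 and Tm9sf1 (7.5% of the members, beside 6.21% of all probes). They did not overlap for 4 members with db lower, E2f1, Gsdmd, H2-Q7 and Rps4l (4 of 40, beside 8.64% of all probes). Of these 7 members, Chgb, Duox1, E2f1 and Gsdmd also have spots in the part of pool 1 that was given, and on those spots the groups of 3 pools overlapped for all 4. The part holds 1 spot for Chgb, Duox1 and E2f1 and 2 for Gsdmd, where the main levels are means of 10. On those few spots the groups of Duox1 and Gsdmd overlapped in pools 2 to 6 already, before pool 1 was added. The shares by size and by overlap were near those over all probes, except for falls over 1.5-fold, which were 5.0% of the members.

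**Figure D4:**
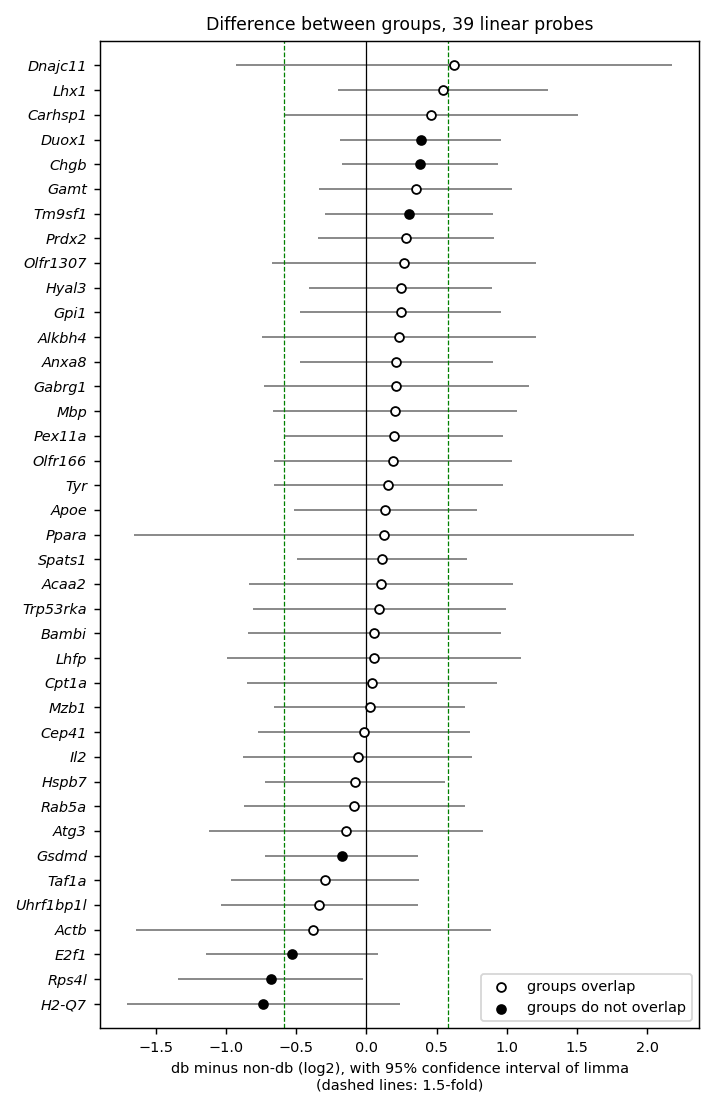
Difference between the db mean and the non-db mean (log2) of 39 of the 40 linear probes compared, with the 95% confidence interval from limma, 2 non-db against 3 db pools. Filled points have groups that do not overlap, dashed lines mark 1.5-fold, and only the interval of Rps4l does not reach 0.

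Rps4l had levels of -2.46 and -2.19 in the non-db-derived pools and -3.26, -3.07 and -2.70 in the db-derived pools. All db-derived pools lay below both non-db-derived pools. Before scaling, the signal of Rps4l was below those of the negative control probes MM9NEGATIVE016 and MM9NEGATIVE017 on every array. The difference was -0.68 ± 0.27 (SE, limma) with an unadjusted limma p of 0.04493 and an adjusted p of 0.9981, and the exact permutation p was 0.2. Its unadjusted limma p was above 0.05 without any 1 of pools 2, 3, 4 and 5. The smallest p that 2 pools against 3 can give in the exact permutation test is 0.1.

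The other falls were no firmer. H2-Q7, a class I molecule of the non-classical Qa-2 group, had levels of 2.34 and 2.65 in non-db and 1.02, 2.17 and 2.08 in db. Pool 4 was the lowest, and the difference of -0.73 ± 0.40 (SE) became -0.37 without it. E2f1, a transcription factor of entry into S phase, had levels of -2.50 and -2.29 in non-db and -2.997, -3.09 and -2.68 in db, a difference of -0.53 ± 0.25. The groups did not overlap for either gene, and their adjusted limma p was 0.9981.

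Actb and Uhrf1bp1l followed in size. The difference of Actb was -0.38 ± 0.52 (SE), an interval from -1.64 to 0.89, and it turned to 0.16 without pool 3. Uhrf1bp1l had levels of -2.99 and -2.38 in non-db and -3.22, -3.04 and -2.80 in db, a difference of -0.34 ± 0.29 that was -0.03 without pool 3. For both genes pool 3 was the highest of the 5, and the groups overlapped.

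Among the larger positive differences, Dnajc11 had levels of -2.003 and -2.69 in non-db and -0.78, -1.40 and -2.97 in db. The db-derived pools held both the highest and the lowest value, and the difference was 0.63 ± 0.64 (SE), or 1.54-fold. Leaving out pool 4 gave 0.16, and leaving out pool 6 gave 1.25 with an unadjusted limma p of 0.01953. Lhx1, a LIM homeobox factor of kidney and brain development, had levels of 1.88 and 1.46 in non-db and 2.58, 2.21 and 1.85 in db, a difference of 0.55 ± 0.31. Carhsp1, an RNA-binding protein regulated by calcium signals, had levels of -1.05 and -0.81 in non-db and 0.30, -0.57 and -1.12 in db, a difference of 0.46 ± 0.43. In both of these the groups overlapped, since pool 6 was within or below the non-db range.

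Chgb and Duox1 were the 2 members for which the exact permutation p reached its smallest value, 0.1. Duox1, an NADPH oxidase of airway and thyroid epithelium, had levels of 0.81 and 0.56 in non-db and 1.17, 1.095 and 0.95 in db, a difference of 0.39 ± 0.24 (SE). Chgb, the chromogranin B of neuroendocrine secretory granules, had levels of -1.36 and -1.50 in non-db and -1.15, -1.03 and -0.95 in db, a difference of 0.38 ± 0.23. The limma adjusted p of both was 0.9981. On the 1 spot per gene held for pool 1, that non-db-derived pool had the highest level of all 6 for both genes, -0.85 for Chgb and 1.22 for Duox1. With pool 1 the difference was 0.15 ± 0.24 for Chgb and 0.12 ± 0.23 for Duox1.

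The differences were described by role as counts and medians, with no test of a list. The role groups were chosen with earlier results of these data known, so a shared direction within a group is description only. All 8 metabolism and redox members kept had a higher mean in db, by 0.04 to 0.35, with a median of 0.22. They include Cpt1a, which carries fatty acids into mitochondria, Acaa2, the last enzyme of mitochondrial beta-oxidation, Gpi1 of glycolysis, Gamt of creatine synthesis, Pex11a of peroxisome division and the peroxiredoxin Prdx2. None of the 8 passed the test. Over all probes, 42.8% had a higher mean in db. Without pool 3, 5 of the 8 were higher, and the same count held without pool 4. It was also 5 of 8 on all 5 arrays with array weights in limma, and with 1 spot per linear probe. Without pool 2, 7 of the 8 were higher.

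The 8 nerve, sense organ or pigment cell members kept likewise all had a higher mean in db, by up to 0.55, with a median of 0.21. Under quantile normalization 7 of the 8 were higher, and 6 of the 8 with array weights in limma or with 1 spot per linear probe. Olfr166 had levels of 3.60 and 2.55 in non-db and 3.32, 3.29 and 3.18 in db. For this receptor the 2 non-db-derived pools held both the highest and the lowest value. Without pool 3, 4 of these 8 members were higher in db, without pool 4, 5 of 8, and without pool 6, 6 of 8.

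The other roles were mixed. Of the 9 cytoskeleton, membranes and organelles members kept, 4 were higher in db and 5 lower, with a median of -0.02, but 7 were higher under quantile normalization. Of the 6 gene expression and cell cycle members, 3 were higher and 3 lower (median -0.10), and of the 5 immune members 2 were higher, Apoe and Mzb1, and 3 lower, Gsdmd, H2-Q7 and Il2 (median -0.06), and with no scaling between arrays 4 of these 5 were higher. Of the 4 muscle, germ cell or epithelium members, Anxa8, Duox1 and Spats1 were higher and Hspb7 was lower (median 0.16), and Hspb7 was higher when arrays were scaled on the median of circRNA probes. None of these counts includes a member with an adjusted p under 0.05.

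Over all 40 members, 28 (70.0%) had a higher mean in db, beside 42.8% of all probes, and their median difference was 0.12 beside -0.06 over circRNA probes. Both values rested on pools 3 and 4. Without pool 3, 17 of 40 were higher with a median of -0.06, and without pool 4, 19 of 40 were higher with a median of -0.03. The comparison without pool 4 is also the one within a single scan session. With array weights in limma 20 of 40 were higher. With no scaling between arrays the median over circRNA probes moved to 0.13 and that over the members to 0.31, and 34 of 40 were higher.

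**Figure D5:**
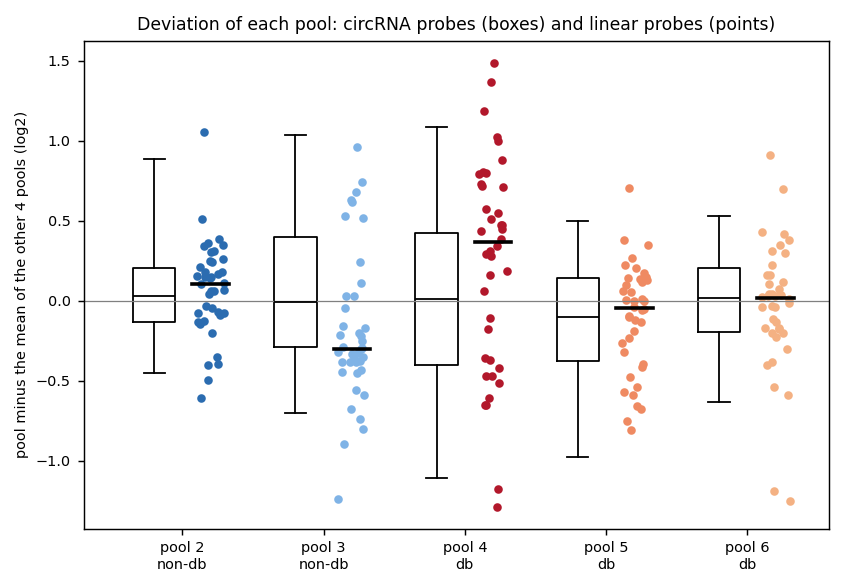
Each pool minus the mean of the other 4 pools (log2) for 12722 circRNA probes (boxes, with the median, the quartiles and whiskers from the 5th to the 95th percentile) and for the 40 linear probes (points, with a bar at their median). The linear probes sit high in pool 4 and low in pool 3, with medians of 0.37 and -0.30, while the circRNA medians of both pools are near 0.

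The medians of single pools lay further apart over the linear probes than over circRNA probes. Against the mean of the other 4 pools, the members had medians of 0.11, -0.30, 0.37, -0.05 and 0.02 in pools 2 to 6. The same medians over circRNA probes were 0.03, -0.01, 0.01, -0.10 and 0.02. In pool 4, 22 of the 40 members (55.0%) had their highest level, beside 33.04% of circRNA probes. In pool 3, 14 members (35.0%) had their lowest level, beside 23.7% of circRNA probes. Pool 3 was from the non-db group and pool 4 from the db group. Pool 4 also had the most negative control probes detected, 8 of 15 beside 3 to 7 in the other pools. Pool 6 had 7, and its member median was 0.02. Before scaling, MM9NEGATIVE015 was brighter in pool 3 (4.65) than in pool 4 (4.40). MM9NEGATIVE016 (5.53 and 6.29) and MM9NEGATIVE017 (5.13 and 6.02) were brighter in pool 4. The part of background in the linear signal of pool 4 was not tested.

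The members did not move as a block. Pool 4 also held the lowest level of 11 members (27.5%, beside 29.4% of circRNA probes), among them Actb, H2-Q7, Rps4l and Pex11a. Pool 3 held the highest level of 7 members (17.5%, beside 28.8% of circRNA probes), Actb, Atg3, Uhrf1bp1l, E2f1, Rps4l, Taf1a and H2-Q7. Of these 7, 5 were lowest in pool 4, namely Actb, Uhrf1bp1l, Rps4l, Taf1a and H2-Q7. The 7 come from the cytoskeleton, gene expression and immune roles, and none from the metabolism, nerve or muscle roles.

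By role, pool 4 was highest for 6 of 8 metabolism and redox members (Acaa2, Cpt1a, Gamt, Hyal3, Ppara and Prdx2) and for 6 of 9 cytoskeleton, membranes and organelles members (Bambi, Cep41, Dnajc11, Lhfp, Rab5a and Tm9sf1). Pool 4 was also highest for 3 of 4 muscle, germ cell or epithelium members, 4 of 8 nerve, sense organ or pigment cell members and 3 of 6 gene expression and cell cycle members. It was highest for 0 of 5 immune members and lowest for 3 of them, Gsdmd, H2-Q7 and Il2. Olfr1307 was at 1.60 in pool 4 and between 0.53 and 0.73 in pools 2, 3, 5 and 6. Its difference between groups was 0.27 ± 0.39 (SE).

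Pool 1, a non-db-derived pool, shared its scan session with pool 4, and the part of its file that was given held spots of 35 members. In that part, 30 members had most of their spots above background and 5 had none, Bambi, Cav2, Kcnn2, Lhfp and Nup50, all of which were also below the rule in pool 5. Of 17 members for which pool 4 lay above pools 2, 3, 5 and 6 on the same spots, pool 1 lay below the mean of those pools for 12. The median of these 17 was 0.67 in pool 4 and -0.14 in pool 1. Over all 32 members of the part that were kept, pool 1 lay below that mean for 20. Their median was -0.18 in pool 1 and 0.25 in pool 4, so pool 1 was low for members in general and not for these 17 alone. These 17 were picked for their level in pool 4, and the part of the scan session in that level was not tested. On those spots Actb was at 3.07 in pool 1, between the levels of 3.04 and 4.16 in pools 2 and 3, and at 2.39 in pool 4.

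With pool 1 added, 32 members could be compared over 3 pools against 3, on the 1 to 4 spots per member that its file held. Of the 32 members, 23 had a higher mean in db, with a median of 0.09 beside -0.03 over circRNA probes. No share of all probes is given for this fit. All 7 metabolism and redox members in that comparison were higher, with a median of 0.21, and 4 of 7 nerve, sense organ or pigment cell members, with a median of 0.02. All 3 immune members in it were higher as well, with a median of 0.09, beside 2 of 5 without pool 1. So were 4 of 7 cytoskeleton, membranes and organelles members, 2 of 4 gene expression and cell cycle members and 3 of 4 muscle, germ cell or epithelium members. No probe had an adjusted limma p under 0.05. H2-Q7 and Rps4l have no spots in that part of pool 1. Of the members with larger differences, Dnajc11 was at 0.53 ± 0.56 (SE) with pool 1, Carhsp1 at 0.71 ± 0.44, Lhx1 at 0.36 ± 0.29 and E2f1 at -0.45 ± 0.28. For E2f1, pool 1 was at -3.01, within the db range of -3.11 to -2.85 on the same 1 spot. Gsdmd was at -0.61 in pool 1 on 2 spots, below all db-derived pools, and its difference was 0.02 ± 0.23.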

How the data were processed

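RNase R-treated RNA of 6 neutrophil pools was measured on 1 circRNA array each, and pools 2 to 6 had complete scanner files. The intensity values were deposited by the authors as scanner output of Agilent Feature Extraction 11.0.1.1, per the file headers for a 1-colour protocol, already background-subtracted within each array and not normalized between arrays. The flags of spots well above background were deposited by the authors in the same output. The log2 values that the authors deposited for the whole series hold circRNA probes only, and they served here to tell linear probes apart. Their normalization is not given in the sources used here, apart from the tool name limma in the submitters' processing notes.

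Members were the probes spotted 10 times with an NM or NR accession and no row in that table. Symbols were matched through a RefSeq gene table (GRCm38.p6), and no coordinates are printed because the array design used another build. Processed signals were taken as log2, averaged over 10 spots, and scaled by subtracting the array's 75th percentile of circRNA probes. Probes detected (more than 5 of 10 spots, or the single spot of a circRNA probe) on at least 3 of 5 arrays were kept. Saturated linear spots numbered 0, and outlier flags were left in. Groups came from the titles in the labels. They were compared with limma 3.58.1 under R 4.3.3 (functions lmFit and eBayes, two-sided, no covariate) over 12762 probes with Benjamini-Hochberg adjustment, and single probes by a two-sided exact permutation test over 10 splits. An SE or confidence interval is that of limma. Plots used Python 3.11.15 and matplotlib 3.10.9. The limma step was tested on simulated data.

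Of the members, 1 is not reported here by name or drawn by name, and it stays in the counts and medians. All others may be named. Values per pool are given for Actb, members with an unadjusted p under 0.05, the 5 largest rises and falls, members with uneven or no detection, and the 3 widest and 3 narrowest ranges. Other members with values (Olfr166 and Olfr1307) were picked with their values known. The members, the role groups and the marker lists were chosen with earlier results of these data known. In all 21 alternatives were tried, on scaling, background, spots, filter, pools and test. Leaving out spots with outlier flags was added after the data were seen.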

Additional observations from a re-analysis of the deposited data

How the results depend on the processing

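Under all 21 alternatives 0 members had an adjusted p under 0.05, so no call was gained or lost. No paired analysis was possible because the groups share no replicate numbers. Pool 1 was added in a fit without and a fit with a term for the scan session. Each session held as many non-db-derived as db-derived pools, so both fits give the same differences by design. Without pool 2 or pool 3 the non-db group has 1 pool, which is assumed to vary like the db-derived pools. Counts at an unadjusted p under 0.05 were unstable. No share of all probes is given for the alternatives. The counts below, by p and by size, therefore stand without a background and are not a result about the members. The higher count, 0 in the report, was 2 with no scaling (Duox1 and Lhx1), 1 with normexp (Chgb), 1 by the methods' t-test (Chgb) and 0 to 1 with a pool left out. The lower count, 1 in the report, was 2 with 1 spot per linear probe (E2f1 and Rps4l), 0 to 1 with a pool left out, and 0 under the median of circRNA probes, no scaling, quantile normalization, normexp, the median of 10 spots, no filter, both fits with pool 1, the trend and robust settings, array weights, the methods' t-test, and with outlier spots left out. The count over 1.5-fold higher, 1 in the report, was 2 under the median of circRNA probes (Dnajc11 and Lhx1), 3 with no scaling (Carhsp1, Dnajc11 and Lhx1), 2 under quantile normalization (Dnajc11 and Mbp), 0 with normexp, 2 in both fits with pool 1 (Carhsp1 and Ppara), 0 with array weights, and 0 to 6 with a pool left out. The count over 1.5-fold lower, 2 in the report, was 0 with no scaling, 1 under quantile normalization, normexp or the median of 10 spots (H2-Q7 each time), 0 in both fits with pool 1, whose file lacks spots of H2-Q7 and Rps4l, 0 with array weights, and 0 to 5 with a pool left out. With a pool left out, 17 (without pool 3) to 32 (without pool 5) members were higher in db, and the median difference ran from -0.06 (without pool 3) to 0.29 (without pool 2). The median of pool 2 against the others was -0.21 with no scaling, and that of pool 4 was 0.11 with normexp.

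Several small differences changed sign. Atg3 was at 0.049 with no scaling, 0.16 under quantile normalization, 0.034 with normexp, 0.28 with 1 spot and 0.19 in both fits with pool 1. Gsdmd was at 0.017 with no scaling and in both fits with pool 1. Hspb7 was at 0.011 under the median of circRNA probes, 0.11 with no scaling, 0.034 under quantile normalization, 0.00036 with normexp and 0.024 in both fits with pool 1. Mbp was at -0.24 with 1 spot, -0.22 in both fits with pool 1 and -0.0092 with array weights. Tyr was at -0.075 with 1 spot and -0.14 in both fits with pool 1, Spats1 at -0.24 in both fits with pool 1, and Ppara at -0.064 with 1 spot and -0.36 with array weights. With array weights Bambi was at -0.11 and Lhfp at -0.21. With a pool left out, differences ran from -0.92 to 0.16 for Actb, -0.55 to 0.26 for Atg3, -0.22 to 0.33 for Bambi, -0.24 to 0.0080 for Hspb7, -0.34 to 0.37 for Lhfp, -0.12 to 0.53 for Mbp, -0.80 to 1.04 for Ppara and -0.054 to 0.40 for Tyr. The cause was not tested for any of these changes. Signal over background limits the dim probes most, and Nup50, Cav2, Kcnn2 and Gsta4 could not be compared.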
